A study of Mus musculus with 18 samples.

Results

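The 99 genes described here encode subunits of the mitochondrial respiratory chain and of ATP synthase. They were chosen by name from the 2 gene tables of the series, which held 25628 and 26903 genes: Nduf subunits of complex I, Sdha to Sdhd of complex II, Uqcr subunits of complex III, Cox4 to Cox8 subunits of complex IV, Atp5 subunits of ATP synthase, and the protein-coding mt genes. Names ending in -ps were left out. Of the 99 members, 86 are nuclear genes and 13 are encoded in mitochondrial DNA; experiment 1 listed 98 of them and experiment 2 listed 99. The nuclear members divide into 40 of complex I, 4 of complex II, 8 of complex III, 17 of complex IV and 17 of ATP synthase. GENCODE types 4 of them, Cox6c2, Ndufa11b, Ndufb4c and Ndufs6b, as processed pseudogenes. Ndufa4 is counted with complex I by its name and is now assigned to complex IV.

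The cells were leukemic erythroid cells from mouse bone marrow, a TgSpi1 line (#763) that overproduces the transcription factor SPI1 (PU.1) and is 1 line throughout. They carry a hairpin RNA against Spi1 that doxycycline switches on, and they were kept in erythropoietin (EPO). The series has 6 groups of 3 libraries each. Experiment 1 set cells given doxycycline for 48 h (Exp1_Dox) against cells without it (Exp1_NoDox). In experiment 2 the groups were doxycycline with entinostat (Dox_Entinostat), entinostat alone (NoDox_Entinostat), doxycycline with DMSO (Dox_DMSO), and DMSO alone (NoDox_DMSO); entinostat, an inhibitor of the histone deacetylases HDAC1 and HDAC3, was given at 3 µM for 6 h, and DMSO was its vehicle. No group with a control hairpin was analysed here, so a doxycycline difference holds the drug and the hairpin together. The labels call the libraries of a group biological replicates without naming separate cultures, so p-values measure the spread between these libraries.

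Complexes I and II pass electrons from NADH and succinate to ubiquinone, and complexes III and IV pass them on to oxygen. Complexes I, III and IV pump protons, and ATP synthase uses the gradient to make ATP. All subunits of complex II come from nuclear genes, while the other complexes join nuclear subunits to a few made inside the mitochondrion. Red cell precursors also make heme in mitochondria and clear these organelles as they mature.

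The promoters below show members on which the doxycycline comparisons turn: Ndufs3 and Ndufa5, which rose, Sdhd, which stood lower while most members stood higher, and Cox6b2, called in both doxycycline comparisons of experiment 2. Each line runs 5′ to 3′ on the strand of the gene, from 250 bases before to 50 bases after the RefSeq start in GRCm38.p6, and all 4 genes lie on the minus strand. The windows are chr2:90904672-90904971 for Ndufs3, chr6:24527477-24527776 for Ndufa5, chr9:50603800-50604099 for Sdhd and chr7:4753045-4753344 for Cox6b2. Capitals mark an NRF1 match (GCGCA and GCGC parted by 1 base) in Ndufa5 and Sdhd, and an ETS match (CCGGAAGT, here on the opposite strand) in Ndufs3.

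Ndufs3: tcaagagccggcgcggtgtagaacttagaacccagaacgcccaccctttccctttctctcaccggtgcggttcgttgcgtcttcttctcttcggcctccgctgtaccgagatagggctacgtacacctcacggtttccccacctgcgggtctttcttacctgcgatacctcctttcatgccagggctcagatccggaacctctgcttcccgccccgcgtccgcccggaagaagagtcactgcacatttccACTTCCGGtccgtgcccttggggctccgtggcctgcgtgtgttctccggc
Ndufa5: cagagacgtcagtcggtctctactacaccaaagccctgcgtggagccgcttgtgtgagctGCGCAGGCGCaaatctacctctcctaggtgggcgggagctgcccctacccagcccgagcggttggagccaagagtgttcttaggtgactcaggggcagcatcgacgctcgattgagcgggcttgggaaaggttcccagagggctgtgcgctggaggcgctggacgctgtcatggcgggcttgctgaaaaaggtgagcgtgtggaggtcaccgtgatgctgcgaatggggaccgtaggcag
Sdhd: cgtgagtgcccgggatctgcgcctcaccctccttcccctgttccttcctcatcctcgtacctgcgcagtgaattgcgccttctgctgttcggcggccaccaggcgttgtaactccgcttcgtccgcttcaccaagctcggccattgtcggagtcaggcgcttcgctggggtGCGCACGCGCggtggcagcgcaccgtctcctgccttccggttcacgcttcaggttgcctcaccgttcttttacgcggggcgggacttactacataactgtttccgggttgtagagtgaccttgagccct
Cox6b2: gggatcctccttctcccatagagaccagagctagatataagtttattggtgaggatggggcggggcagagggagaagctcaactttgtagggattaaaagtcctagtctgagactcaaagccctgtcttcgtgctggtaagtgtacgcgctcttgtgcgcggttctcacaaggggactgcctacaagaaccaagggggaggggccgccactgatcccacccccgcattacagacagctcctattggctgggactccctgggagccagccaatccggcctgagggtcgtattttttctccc

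Promoters were found for 67 of the 86 nuclear members, or 81.7% of the 82 that are protein-coding, and were searched on both strands. The NRF1 letters stood in 16 of them (23.9%), against 4.74% of the 26958 other promoters of the same length. YY1 letters (AANATGGC) stood in 15 (22.4%), against 6.19% of other promoters, and the ETS letters in 5 (7.46%), against 3.99%. The PU.1 letters (GAGGAAGT) stood in the Ndufs4 promoter alone (1.49%), against 3.29% of other promoters. GATA letters (AGATAA) stood in 6 (8.96%), against 11.4%. Sdha held 3 NRF1 matches, and Cox6b2 held no match to any of the 5 motifs in this window. The ETS and PU.1 letters share their last bases, so a near miss of the first can match the second, and none of these matches is a measured binding site.

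RNA was polyadenylated and sequenced from an unstranded kit, and levels are given in CPM (counts scaled to a common library total, with TMM factors). Depth was 82.7 to 114 M counts a library in experiment 1, and 43.1 to 48.9 M in the libraries of experiment 2. Spi1 checked the hairpin, at 125 to 133 CPM in Exp1_Dox and 379 to 459 CPM in Exp1_NoDox. It was lower with doxycycline in each comparison of experiment 2 as well. There it stood at 98.5, 162 and 132 CPM in Dox_Entinostat, against 221, 480 and 482 CPM in NoDox_Entinostat. In DMSO it stood at 59.5, 126 and 105 CPM in Dox_DMSO, against 200, 259 and 251 CPM in NoDox_DMSO. The first library was the lowest in each of these groups. Erythroid markers were present (15 of 16 at 1 CPM or more in each table) and summed lymphoid and stromal or endothelial markers stayed at or below 4.002 CPM, against erythroid sums above 4425 CPM in every library. The erythroid marker sum was itself higher with doxycycline, at 7214 to 7906 CPM in Exp1_Dox against 5172 to 5377 CPM in Exp1_NoDox, and at 6433 to 8642 CPM in Dox_Entinostat, 4537 to 4565 CPM in NoDox_Entinostat, 5685 to 8049 CPM in Dox_DMSO and 4425 to 4576 CPM in NoDox_DMSO. Myeloid markers summed to 3.98 to 6.32 CPM in Dox_Entinostat, 17.5 to 20.0 CPM in NoDox_Entinostat, 1.87 to 2.80 CPM in Dox_DMSO, 3.67 to 4.09 CPM in NoDox_DMSO, and at most 4.16 CPM in experiment 1. The part of these markers in the results was not tested. In such bulk RNA, fewer cells of a type and less RNA per cell cannot be told apart.

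Libraries of experiment 2 differed by transcript length in a way that the groups follow only in part, with every Dox_Entinostat library on the high side. The 3 Dox_Entinostat libraries, the first NoDox_Entinostat library and the first Dox_DMSO library had higher levels of transcripts under 1 kb outside the members (median deviations of 0.37 to 0.54 log2 from the mean of all 12 libraries). In the other 7 libraries these medians lay between -0.52 and -0.03. Nuclear members are short, with a median transcript of 697.5 nt (231 to 3171 nt), against 2310 nt over all genes tested in experiment 2. Their median deviations followed the same libraries: 0.51, 0.50 and 0.50 in Dox_Entinostat, 0.33, -0.74 and -0.59 in NoDox_Entinostat, 0.64, -0.41 and -0.40 in Dox_DMSO, and -0.01, -0.37 and -0.15 in NoDox_DMSO. Results of experiment 2 are therefore also given with a length and GC trend removed from each library. They are also given without the first libraries of NoDox_Entinostat and Dox_DMSO. That leaves short transcripts high in Dox_Entinostat alone, and lower in NoDox_Entinostat and Dox_DMSO than in every NoDox_DMSO library. In each comparison length then goes with group, and these fits cannot tell them apart. The part of length in the results was not otherwise tested. In experiment 1 the medians of short transcripts were -0.18, 0.15 and 0.09 in Exp1_Dox, and -0.24, 0.16 and 0.01 in Exp1_NoDox. These are log2 deviations from the mean of its own libraries. The first library of each group was the lowest, for short transcripts and for nuclear members, and the part of length there was not otherwise tested.

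Per kb of transcript, the beta subunit of ATP synthase, Atp5b, stood highest among nuclear members in experiment 1, at 1510 ± 167 CPM per kb in Exp1_Dox and 1345 ± 186 in Exp1_NoDox (SD, n = 3 each). Uqcrh, the hinge subunit of complex III, followed at 798 ± 145 in Exp1_Dox and 750.2 ± 156 in Exp1_NoDox. Next in Exp1_NoDox came the alpha subunit Atp5a1 at 663 ± 84.3 and Cox4i1, a large nuclear subunit of complex IV, at 661 ± 145 CPM per kb, which did not differ from Uqcrh or from each other beyond their SDs. At the low end stood tissue isoforms, some pseudogenes and a few ordinary subunits. In Exp1_NoDox, Cox7a1 had 1.92 ± 0.522, Cox6b2 1.53 and Cox6a2 1.30 CPM per kb, the last with an SD of 1.46. The ordinary subunits Atp5g2 and Ndufb4 had 4.83 and 7.67 CPM per kb there, below the pseudogene Cox6c2 at 34.4. Cox4i2, Cox7b2 and Ndufa11b had at most 9 counts in any library of either table. Of 90 members at 1 CPM or more, 14 differed over 4-fold between the tables, among them Atp5g1, Atp5g2 and Atp5l, so no level is compared across the tables.

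In experiment 1, most nuclear members of every complex stood slightly higher with doxycycline once libraries were matched by replicate number. Unmatched libraries overlapped: median deviations of nuclear members were -0.15, 0.26 and 0.16 in Exp1_Dox, against -0.37, 0.15 and -0.05 in Exp1_NoDox. All members share these libraries, so they are not independent of each other. With libraries matched by replicate number, 71 of the 82 nuclear members tested (86.6%) were higher in Exp1_Dox in all 3 pairs, against 37.1% of all 13811 genes tested. Only 4 members (4.88%) were lower in all 3 pairs, against 33.2% of all genes. The median log2 ratios of the pairs were 0.21, 0.13 and 0.20. Without pairing, the median log2 fold change was 0.17, against 0.02 over all genes, and few members passed the test: 2 rose, where 5.26% of all genes rose, and 1 fell, where 8.36% of all genes fell (edgeR, adjusted p under 0.05). DESeq2 called none, where it called 4.74% of all genes up and 7.51% down, with 3 higher and 2 lower at an unadjusted p under 0.05; edgeR had 7 and 2.

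**Figure D1:**
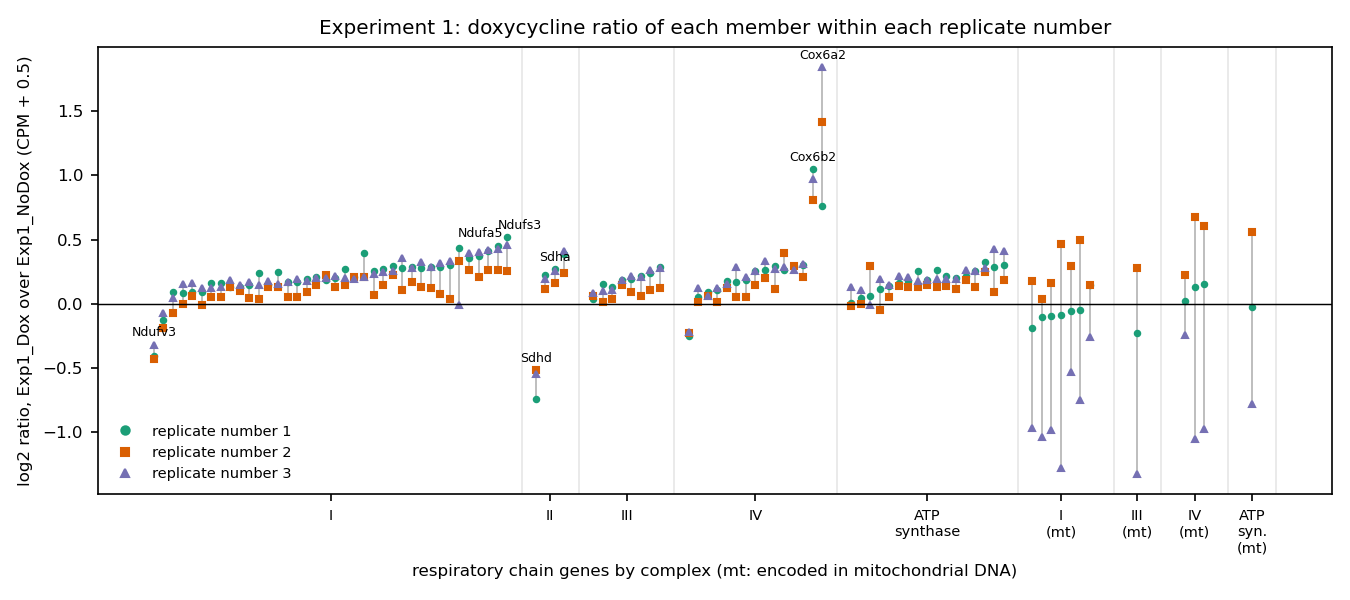
Log2 ratio of Exp1_Dox over Exp1_NoDox for each member (CPM + 0.5) within each replicate number, by complex, nuclear members first and mitochondrially encoded (mt) members at the right; lines join the 3 ratios of a gene. Most nuclear members lie a little above 0 in all 3 pairs, Cox6a2 and Cox6b2 lie far above, Sdhd and Ndufv3 below, and the mt members spread to both sides.

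Deviations of same-numbered libraries correlated at 0.970, 0.914 and 0.552, so the replicate number was also fitted as a block. Differently numbered libraries reached 0.672, and the labels do not say what a number shares. Under the block 64 members rose, where 26.1% of all genes rose, and 3 fell, where 24.7% of all genes fell. By complex, 31 of 38 tested members of complex I rose, with 3 of 4 of complex II, 6 of 8 of complex III, 11 of 15 of complex IV and 13 of 17 of ATP synthase. The rises were small: Ndufv1, the subunit that binds NADH, had a blocked log2 fold change of 0.37 ± 0.04 (SE), Sdha of complex II 0.23 ± 0.04, Uqcrc1 of complex III 0.17 ± 0.04 and Atp5b 0.17 ± 0.04. Uqcrfs1, Cox5a, Cox5b, Atp5a1, Sdhb and Ndufs1 also rose under the block. Cox4i1 and the 3 copies of the c ring subunit of ATP synthase, Atp5g1, Atp5g2 and Atp5g3, did not pass the test, with edgeR adjusted p of 0.177, 0.438, 0.285 and 0.148 under the block.

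Ndufs3, a core subunit of complex I that lies on the path to ubiquinone, stood at 68.8, 71.5 and 75.1 CPM in Exp1_Dox, against 47.9, 59.7 and 54.4 CPM in Exp1_NoDox. The groups did not overlap, and the log2 fold change was 0.41 ± 0.10 (SE; edgeR, adjusted p = 0.0477). Its exons overlap Kbtbd4 on the opposite strand, and unstranded reads cannot separate the genes. Ndufa5, an accessory subunit of complex I, stood at 57.6, 56.3 and 55.7 CPM in Exp1_Dox, against 42.0, 46.7 and 41.3 CPM in Exp1_NoDox (log2 fold change 0.38 ± 0.08, edgeR adjusted p = 0.0278). Again no library of a group crossed into the other. Leaving out single libraries took the adjusted p of Ndufs3 to between 0.0453 and 0.178 and that of Ndufa5 to between 0.0348 and 0.153.

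A few members ran the other way. Ndufv3, an accessory subunit of the NADH-binding arm, stood at 30.6, 33.1 and 34.2 CPM in Exp1_Dox, against 40.7, 44.8 and 42.8 CPM in Exp1_NoDox, and fell by 0.39 ± 0.08 on the log2 scale (edgeR, adjusted p = 0.0286; 0.0539 to 0.135 with single libraries left out). Sdhd, a membrane anchor of complex II, stood at 336, 549 and 496 CPM in Exp1_Dox, against 562, 784 and 725 CPM in Exp1_NoDox. All 3 Exp1_Dox values lay below all 3 Exp1_NoDox values, but the spread within groups was wide and the log2 fold change of -0.58 ± 0.21 did not pass the test (edgeR, adjusted p = 0.139). With the replicate block it was -0.60 ± 0.05 (edgeR, adjusted p = 7.29e-06). The other subunits of the same complex went up under that fit: Sdha, the flavoprotein, stood at 943, 795 and 841 CPM in Exp1_Dox, against 783, 709 and 704 CPM in Exp1_NoDox. Ndufb10, a membrane-arm accessory subunit of complex I and also a blocked fall, had a log2 fold change of -0.13 ± 0.04 (edgeR with the block, adjusted p = 0.0171).

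The tissue isoforms of complex IV had the largest ratios and low counts. Cox6b2, the form of Cox6b known from testis, stood at 1.38, 2.95 and 1.79 CPM in Exp1_Dox, against 0.407, 1.47 and 0.665 CPM in Exp1_NoDox. Cox6a2, the heart and skeletal muscle form of Cox6a, stood at 0.913, 6.24 and 2.30 CPM in Exp1_Dox, against 0.336, 2.03 and 0.282 CPM in Exp1_NoDox; its exons overlap Itgad on the opposite strand. In each gene the second library of each group was the highest, so the groups overlapped although every pair was higher with doxycycline. Under the block the log2 fold changes were 1.30 ± 0.15 for Cox6b2 (edgeR, adjusted p = 0.000115) and, for Cox6a2, positive as well (0.000106). Without it they were 1.25 ± 0.51 and 1.81 ± 0.97 and neither passed (0.184 and 0.314). The common forms Cox6b1 and Cox6a1 had blocked adjusted p of 0.0738 and 0.00153 in edgeR, and Cox7a1, the muscle form of Cox7a, had a log2 fold change of -0.41 ± 0.31 (edgeR, adjusted p = 0.490).

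**Figure D2:**
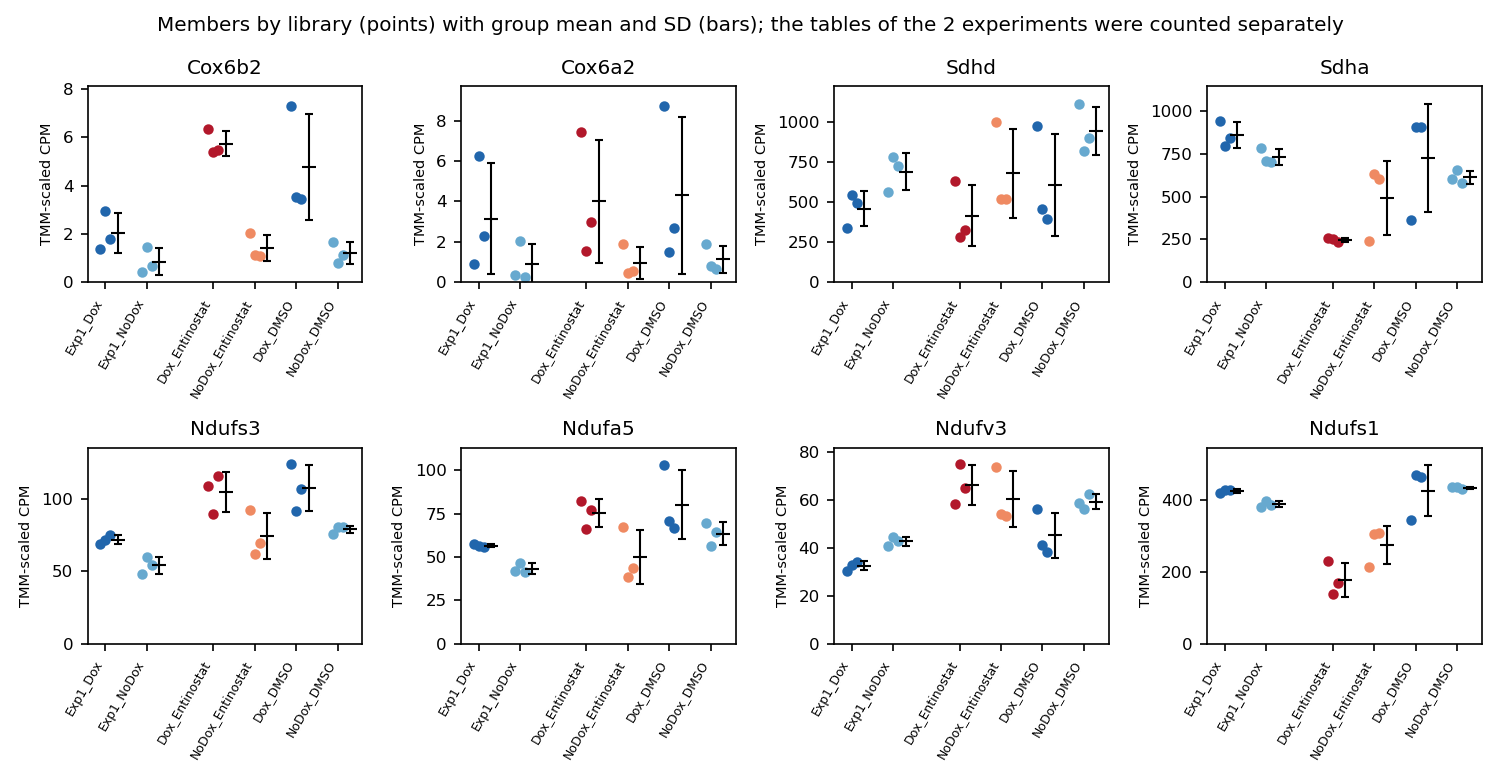
TMM-scaled CPM of 8 members in every library (points), with the mean and SD of each group of 3 (bars), Exp1_Dox and Exp1_NoDox at the left and the 4 groups of experiment 2 at the right; each axis starts at 0, where bars that would pass below it are cut. Cox6b2 is higher with doxycycline in DMSO and in entinostat, and Sdhd lies lower with doxycycline in experiment 1. Sdha and Ndufs1 are low in all 3 Dox_Entinostat libraries and in the first NoDox_Entinostat library.

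In experiment 2, doxycycline in DMSO changed 1 nuclear member by the same test. Cox6b2 stood at 7.32, 3.54 and 3.45 CPM in Dox_DMSO, against 1.69, 0.804 and 1.11 CPM in NoDox_DMSO. The groups did not overlap, and the log2 fold change was 1.99 ± 0.37 (edgeR, adjusted p = 0.00398), with adjusted p of 0.00112 to 0.0254 when single libraries were left out. It was the only rise among 82 tested members, where 3.77% of all genes rose, and no member fell, where 5.53% of all genes fell. DESeq2 gave 1 rise, where 4.97% of all genes rose, and 1 fall, where 6.32% fell, and 3 members were higher and 1 lower at an unadjusted p under 0.05 in edgeR. The median log2 fold change was 0.22, with 74 of 82 positive, against 0.05 over all genes. Without the first Dox_DMSO and NoDox_Entinostat libraries the median was -0.22 and 2 members rose, where 17.4% of all genes rose, and 8 fell, where 13.9% of all genes fell; without the first Dox_DMSO library alone the median was -0.22 as well, so the direction of the median rests on that library.

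Members singled out in experiment 1 had these values in DMSO. Ndufs3 stood at 124, 91.8 and 107 CPM in Dox_DMSO, against 75.9, 80.2 and 80.4 CPM in NoDox_DMSO, without overlap (log2 fold change 0.45 ± 0.18, edgeR adjusted p = 0.180). Ndufv3 stood at 56.2, 41.3 and 38.4 CPM in Dox_DMSO, against 58.9, 56.6 and 62.7 CPM in NoDox_DMSO, also without overlap (-0.39 ± 0.19, edgeR adjusted p = 0.269). Sdhd stood at 974, 455 and 397 CPM in Dox_DMSO, against 1113, 821 and 902 CPM in NoDox_DMSO. The first Dox_DMSO library lay among the NoDox_DMSO values, and the log2 fold change was -0.63 ± 0.40 (edgeR, adjusted p = 0.439). Without the 2 first libraries Sdhd and Ndufv3 fell by 1.15 and 0.58 on the log2 scale (edgeR, adjusted p = 0.00552 and 0.00151). Cox6a2 stood at 8.72, 1.49 and 2.69 CPM in Dox_DMSO, against 1.91, 0.825 and 0.655 CPM in NoDox_DMSO, with overlap (edgeR, adjusted p = 0.163). The 11 named core subunits were Ndufs1, Ndufv1, Sdha, Sdhb, Uqcrc1, Uqcrfs1, Cox4i1, Cox5a, Cox5b, Atp5a1 and Atp5b. Their log2 fold changes ran from -0.02 for Ndufs1 to 0.39 for Cox5b, and none passed.

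Doxycycline in entinostat was accompanied by a rise of many small subunits. Of 82 nuclear members tested, 26 rose, where 8.96% of all genes rose, and none fell, where 15.1% of all genes fell; DESeq2 gave 41 rises and 2 falls, where 12.8% of all genes rose and 17.0% fell, and 49 were higher and 2 lower at an unadjusted p under 0.05 in edgeR. The median log2 fold change was 0.88, against -0.08 over all genes. The rises fell in complex I (15 of 39 tested), complex IV (3 of 14) and ATP synthase (8 of 17), and none of 4 in complex II or 8 in complex III passed. Small accessory subunits led: Atp5mpl and Atp5md of the ATP synthase membrane part, Atp5e and Atp5l of ATP synthase, Cox7b and Cox7a2 of complex IV, and Ndufa4 and Ndufb4 had log2 fold changes of 1.56 to 1.72. Counts of Ndufs6b and Ndufb4c, pseudogene relatives of Ndufs6 and Ndufb4, gave 2.63 ± 0.68 and 2.19 ± 0.48 at no more than 2.77 CPM, and may share reads with their parent genes.

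The values show which libraries carry it. Atp5e, the epsilon subunit, stood at 543, 959 and 723 CPM in Dox_Entinostat, against 435, 125 and 148 CPM in NoDox_Entinostat. Ndufa4, a small subunit, stood at 703, 1302 and 972 CPM in Dox_Entinostat, against 561, 183 and 202 CPM in NoDox_Entinostat. In each gene the first NoDox_Entinostat library lay far nearer to Dox_Entinostat than to its own group, without reaching it. The log2 fold changes were 1.65 ± 0.51 for Atp5e and 1.65 ± 0.49 for Ndufa4 (edgeR, adjusted p = 0.0355 and 0.0316), and with single libraries left out the adjusted p went up to 0.148 and 0.137.

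**Figure D3:**
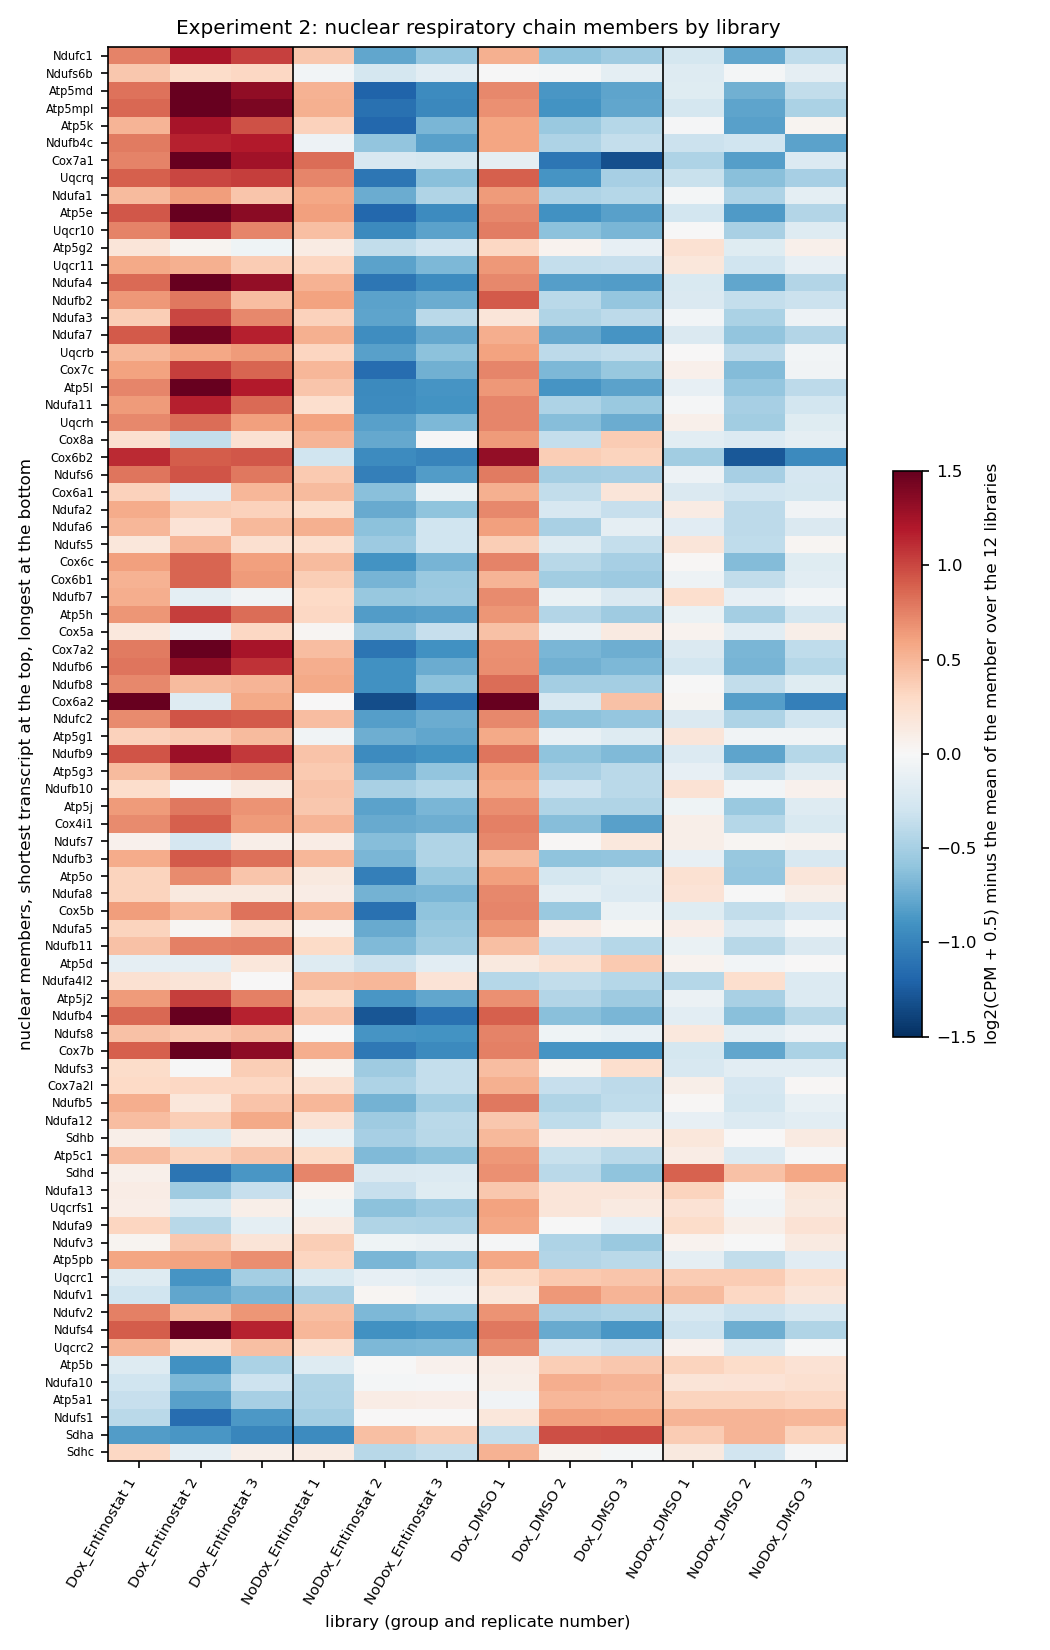
Log2(CPM + 0.5) of nuclear members tested in experiment 2, all but 1 of the 82, minus the mean of each member over the 12 libraries, with libraries in columns by group and members ordered from the shortest transcript (top) to the longest (bottom). Most rows above the longest transcripts are high in the 3 Dox_Entinostat libraries, NoDox_Entinostat 1 and Dox_DMSO 1. At the bottom, Sdha, Ndufs1 and Atp5a1 are low in Dox_Entinostat. All of these are also lowest of their group in Dox_DMSO 1, as are Sdha and Ndufs1 in NoDox_Entinostat 1.

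The fold changes followed transcript length. Of members under 1 kb, 23 of 57 rose; of those from 1 to 1.5 kb, 2 of 11; and of those of 1.5 kb or over, 1 of 14, Ndufs4. Other genes under 1 kb rose in 18.6% of cases, with a median log2 fold change of 0.61, and other genes of 1.5 kb or over had a median of -0.26. Across the 82 members, Pearson's r of log2 fold change with log2 length was -0.64, a description over genes that share the same libraries. With the length and GC trend removed, 27 members rose, where 14.1% of all genes rose, and 3 fell, where 15.5% fell; the median was 0.33. Without the first libraries of NoDox_Entinostat and Dox_DMSO, 68 rose, where 26.1% of all genes rose. Short transcripts were then high in Dox_Entinostat alone, so that fit cannot tell length from group. Fits without NoDox_Entinostat 2 or 3 left 2 and 1 rises, where 1.71% and 1.47% of all genes rose. Leaving out Dox_Entinostat 2 or 3 left 3 and 2 rises, where 2.77% and 1.97% of all genes rose.

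Cox6b2 again rose, at 6.33, 5.39 and 5.48 CPM in Dox_Entinostat, against 2.06, 1.13 and 1.07 CPM in NoDox_Entinostat. The groups did not overlap and the log2 fold change was 2.01 ± 0.37 (edgeR, adjusted p = 0.0036), near its value in DMSO; the interaction was 0.03 ± 0.52 (edgeR, adjusted p = 0.989). It passed with each library left out (adjusted p up to 0.0242) and with the trend removed (log2 fold change 1.40, adjusted p = 0.000962). Cox6a2 stood at 7.43, 1.57 and 2.99 CPM in Dox_Entinostat, against 1.87, 0.439 and 0.574 CPM in NoDox_Entinostat, with overlap (edgeR, adjusted p = 0.0645). Complex II had the lowest median of the complexes, -0.21: Sdha stood at 259, 252 and 235 CPM in Dox_Entinostat, against 241, 630 and 601 CPM in NoDox_Entinostat (log2 fold change -0.98 ± 0.37, edgeR adjusted p = 0.0679). Sdhd stood at 634, 282 and 329 CPM in Dox_Entinostat, against 1004, 519 and 523 CPM in NoDox_Entinostat (-0.72 ± 0.40, edgeR adjusted p = 0.185). With the trend removed Sdhd fell by 0.97 on the log2 scale (edgeR, adjusted p = 0.0221). Of the 3 c ring copies, Atp5g1 rose (0.89 ± 0.25, edgeR adjusted p = 0.026), while Atp5g3 had 0.88 ± 0.34 and Atp5g2 0.22 ± 0.18, and neither passed. None of the same 11 named subunits passed either, although Ndufs8, another iron-sulfur core subunit of complex I, rose (0.96). Of the 11, Cox4i1 and Cox5b had the highest log2 fold changes, 0.95 and 0.89, Uqcrfs1, Sdhb and Cox5a had 0.39, 0.35 and 0.40, and Uqcrc1, Ndufv1, Atp5b, Atp5a1 and Ndufs1 had -0.34, -0.41, -0.45, -0.48 and -0.63. Called members not yet named were Ndufb9, Ndufa7, Ndufa11, Ndufb6, Atp5k, Ndufc1, Atp5h, Ndufs6, Atp5j2, Ndufa3, Ndufb11 and Ndufa12, at 0.68 to 1.43.

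Entinostat without doxycycline changed few respiratory chain genes, although it changed many others. No nuclear member rose, where 30.3% of all genes rose, and 2 fell, where 16.9% fell. Ndufs1, the largest iron-sulfur subunit of complex I, stood at 213, 305 and 307 CPM in NoDox_Entinostat, against 435, 434 and 429 CPM in NoDox_DMSO (log2 fold change -0.65 ± 0.22, edgeR adjusted p = 0.0294; its exons overlap Eef1b2 on the opposite strand). Uqcrc1, a core subunit of complex III, stood at 256, 277 and 270 CPM in NoDox_Entinostat, against 392, 392 and 358 CPM in NoDox_DMSO (-0.51 ± 0.18, edgeR adjusted p = 0.036). Neither gene's groups overlapped. Ndufv1, Sdhb and Uqcrfs1 lay without overlap on the same side, at log2 fold changes of -0.49, -0.43 and -0.49, and did not pass (edgeR, adjusted p = 0.063, 0.0672 and 0.0574). Among other core subunits Sdha, Atp5a1, Atp5b and Cox5a had log2 fold changes of -0.32, -0.38, -0.32 and -0.27, Cox4i1 had -0.02 and Cox5b 0.03. Cox7a1 and Cox6b2 had 0.88 and 0.24 (edgeR, adjusted p = 0.167 and 0.637), and neither passed.

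These falls depend on the scaling and on the libraries used. Scaling by library size alone moved the median of all genes from 0.07 to 0.32, left no fall, where 8.19% of all genes fell, and put the nuclear median at 0.17 instead of -0.05, which is below all genes on either scale. Leaving out single libraries took the adjusted p to between 0.0164 and 0.0849 for Ndufs1 and between 0.0133 and 0.0995 for Uqcrc1. Without the first NoDox_Entinostat and Dox_DMSO libraries 60 members fell, where 27.7% of all genes fell, with a median of -0.51. Short transcripts were then lower in every NoDox_Entinostat library than in NoDox_DMSO, so that fit cannot tell length from group. With the trend removed and all libraries kept, 1 rose, where 35.9% of all genes rose, and 8 fell, where 19.4% fell.

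With doxycycline present, entinostat split the members. Of 82, 21 rose, where 33.9% of all genes rose, and 8 fell, where 29.9% fell (edgeR). With library size alone 37 rose, where 38.3% of all genes rose, and 7 fell, where 24.7% fell. The falls were 6 core subunits with long transcripts, Sdha, Ndufs1, Ndufv1, Uqcrc1, Atp5a1 and Atp5b, and the complex I accessory subunits Ndufa10 and Ndufa13. Sdha stood at 259, 252 and 235 CPM in Dox_Entinostat, against 361, 906 and 910 CPM in Dox_DMSO, and fell by 1.54 ± 0.37 on the log2 scale (edgeR, adjusted p = 0.00318). Ndufs1 stood at 229, 137 and 167 CPM in Dox_Entinostat, against 344, 468 and 465 CPM in Dox_DMSO, and fell by 1.26 ± 0.23 (edgeR, adjusted p = 0.000459). In neither gene did the groups overlap, but the first Dox_DMSO library was the lowest of its group in each.

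The same held for the catalytic core of ATP synthase. Atp5b stood at 1643, 1001 and 1350 CPM in Dox_Entinostat, against 2037, 2424 and 2490 CPM in Dox_DMSO, and fell by 0.80 ± 0.23 on the log2 scale (edgeR, adjusted p = 0.00788). Atp5a1, the alpha subunit, stood at 909, 658 and 820.0 CPM in Dox_Entinostat, against 1117, 1643 and 1618 CPM in Dox_DMSO, and fell by 0.87 ± 0.24 (edgeR, adjusted p = 0.00612; its exons overlap Haus1). Ndufv1, Uqcrc1 and Ndufa10 fell by 1.03, 0.87 and 0.82 on the log2 scale. All of these 7 falls passed with the trend removed, where the log2 fold changes were -0.51 to -1.12, and with each library left out, where the adjusted p was at most 0.0286. Ndufa13 (-0.49 ± 0.19, edgeR adjusted p = 0.0355) did not pass with the trend removed (0.0839). The core subunits Cox4i1, Cox5b, Cox5a, Sdhb and Uqcrfs1 had log2 fold changes of 0.80, 0.53, -0.04, -0.23 and -0.32 and did not pass, nor did Atp5g1, Atp5g2 or Atp5g3, at 0.27, -0.03 and 0.66.

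The rises were again mostly small subunits, in complex I (14 of 39), complex IV (3 of 14) and ATP synthase (4 of 17). Atp5mpl, Atp5e, Cox7b, Ndufa4, Atp5md and Ndufa7 had log2 fold changes of 1.41 to 1.54, and Ndufs6b, Ndufb4c, Atp5l, Ndufs4, Ndufb4, Ndufb6, Ndufc1, Ndufb9, Ndufb3, Ndufa3 and Ndufb11 rose as well. Atp5e stood at 543, 959 and 723 CPM in Dox_Entinostat, against 469, 151 and 161 CPM in Dox_DMSO, the first of these close to the lowest Dox_Entinostat library. Of members under 1 kb, 18 of 57 rose and none fell; of those of 1.5 kb or over, 2 of 14 rose and 7 fell. Other genes under 1 kb rose in 48.7% of cases and other genes of 1.5 kb or over fell in 38.5%. With the trend removed 18 members rose, where 38.6% of all genes rose, and 19 fell, where 26.8% fell. Without the 2 first libraries, where length goes with group, 58 rose, and 43.1% of all genes rose. Leaving out Dox_DMSO 2, Dox_DMSO 3 or Dox_Entinostat 2 left 3 rises in each case, where 28.3%, 28.9% and 28.8% of all genes rose. Leaving out Dox_DMSO 1 gave 53, where 39.1% of all genes rose.

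**Figure D4:**
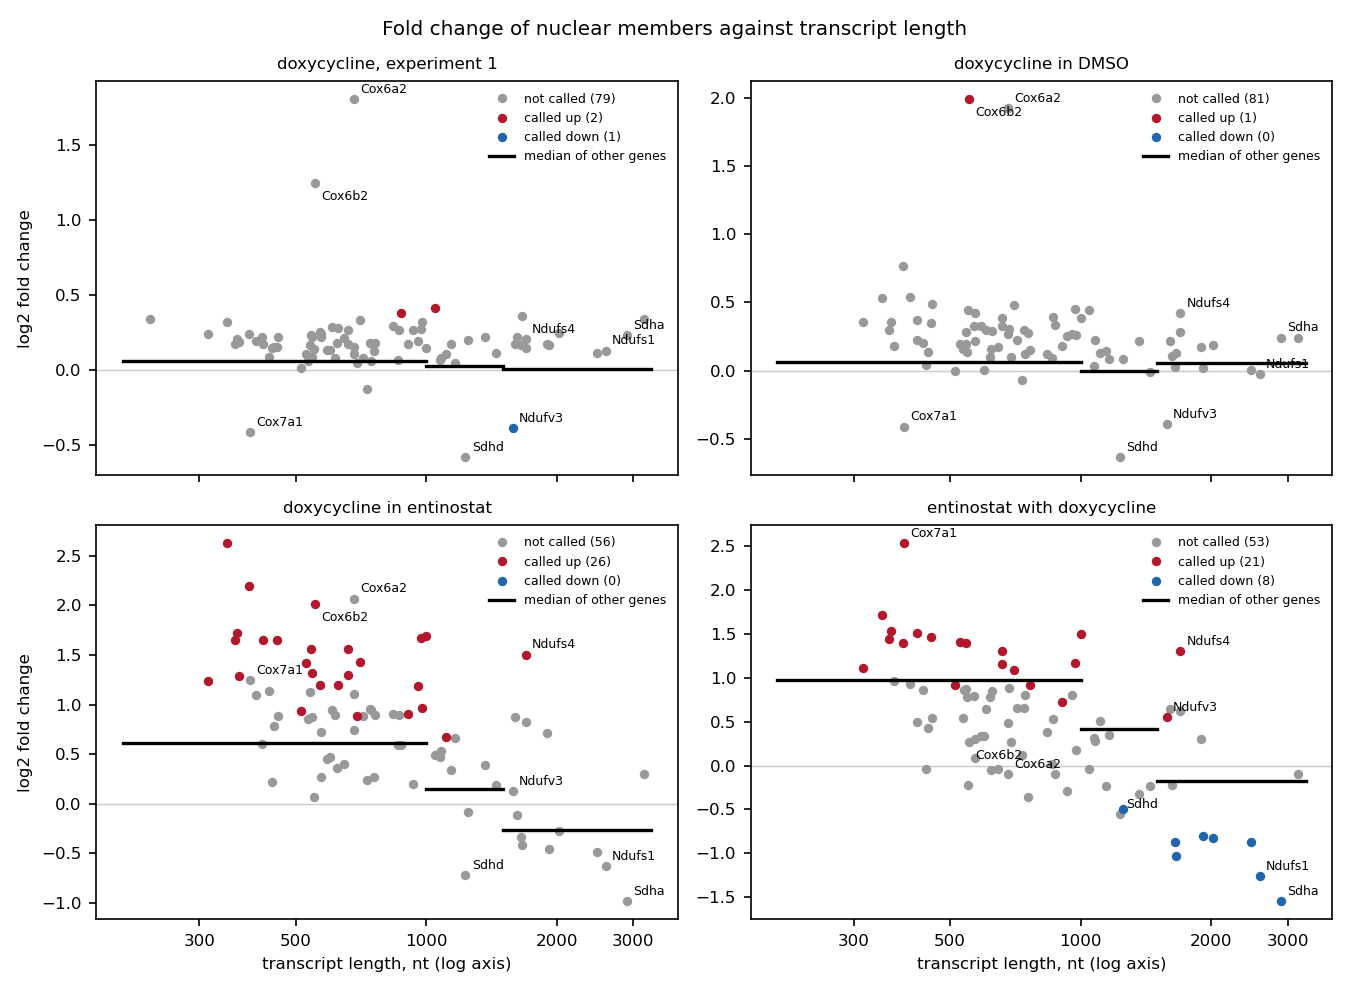
Log2 fold change of nuclear members against transcript length (log axis) in 4 comparisons, with called members in color, counts in brackets, and black lines at the median of all other genes in 3 length classes; Ndufa4l2, with almost no counts in some groups, is not drawn. In the comparisons that involve Dox_Entinostat the short members lie high and the long ones low, as do other genes, with Pearson's r of -0.64 and -0.55 over all 82 tested members. In the other panels r was -0.07 in experiment 1 and -0.17 in DMSO, where Spearman's rho was -0.33.

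Of the tissue and stress isoforms, Cox7a1 and Ndufa4l2 rose with entinostat in doxycycline, while Cox6a2 and Cox6b2 had log2 fold changes of -0.10 and 0.27 and did not pass (edgeR, adjusted p = 0.908 and 0.516). Cox7a1, the heart and muscle form of Cox7a, stood at 3.56, 7.50 and 5.31 CPM in Dox_Entinostat, against 1.72, 0.648 and 0.474 CPM in Dox_DMSO, and did not overlap (log2 fold change 2.53 ± 0.52, edgeR adjusted p = 0.00101; at most 0.00664 with a library left out). Ndufa4l2, the hypoxia-inducible relative of Ndufa4, had 13, 12 and 8 counts in Dox_Entinostat, against 0, 1 and 0 counts in Dox_DMSO. Scaled by library totals the ratio was 36.1 (95% exact counting interval 6.04 to 1468; edgeR, adjusted p = 0.00444), at no more than 0.291 CPM; its exons overlap Shmt2. Without doxycycline it had 21, 25 and 15 counts in NoDox_Entinostat, against 0, 14 and 4 counts in NoDox_DMSO (edgeR, adjusted p = 0.0901). Cox7a2, the common form of Cox7a, rose as well (1.31 ± 0.45, edgeR adjusted p = 0.022). Ndufv3, lower with doxycycline in experiment 1, stood at 58.7, 75.2 and 65.1 CPM in Dox_Entinostat, against 56.2, 41.3 and 38.4 CPM in Dox_DMSO (0.55 ± 0.19, edgeR adjusted p = 0.0205).

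The interaction, taken as how far the effect of doxycycline under entinostat exceeded its effect under DMSO, called no member in either direction, where 0.166% of all genes were called up and 0.106% down. At an unadjusted p under 0.05 edgeR had 4 members up and 1 down and DESeq2 11 and 1; DESeq2 also called none after adjustment, where it called 0.835% of all genes up and 0.882% down. The largest contrasts were Cox7a1 at 1.65 ± 0.70 and Sdha at -1.22 ± 0.52 among members with more than a few counts (edgeR, adjusted p = 0.314 for each). Without the first NoDox_Entinostat library 28 members were called up and 1 down, where 5.98% of all genes were called up and 13.7% down. Without the first Dox_DMSO library the counts were 26 and 1, where 6.52% of all genes were called up and 10.4% down. Without both, 64 were up, where 21.5% of all genes were, and 6 down, where 30.0% were. The 6 were Sdha, Ndufs1, Atp5a1, Ndufv1, Ndufa10 and Atp5b. Length goes with group in that fit, which cannot tell them apart.

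No mitochondrially encoded (mt) member was called by edgeR in any of the 6 comparisons. Polyadenylated transcripts of mt-Co1, mt-Nd1, mt-Cytb, mt-Nd2, mt-Nd5 and mt-Nd4 were abundant, mt-Nd6, the member on the light strand, stood at 9.82 to 38.7 CPM, and the rest lay at or below 20.5 CPM. Of the rest, mt-Co2 and mt-Co3 averaged 0.470 and 0.554 CPM in NoDox_DMSO, but 10.4 and 10.5 CPM in Exp1_NoDox. How reads shared with other copies were counted is not stated, so such low values are not read as transcript levels. Where tested, these members still count in the mt medians and numbers. mt-Co1, the catalytic subunit of complex IV, stood at 5526, 14761 and 5432 CPM in Exp1_Dox, against 4968, 9693 and 10690 CPM in Exp1_NoDox. High and low libraries occurred in each group, none of the 12 tested members moved one way in all 3 pairs, and the pair medians were -0.05, 0.29 and -0.97. At an unadjusted p under 0.05 in edgeR, mt-Co3 was higher in doxycycline in DMSO, and mt-Nd4 and mt-Nd6 in doxycycline in entinostat. The mt-Co3 difference starts from that mean of 0.554 CPM in NoDox_DMSO, so it rests on few counts. DESeq2 called 1 mt member, in doxycycline in DMSO.

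In experiment 2 the mt transcripts were high in the 5 libraries with high short transcripts, and also in the first NoDox_DMSO library. mt-Co1 stood at 10167, 8633 and 7946 CPM in Dox_Entinostat, 8504, 4386 and 4104 CPM in NoDox_Entinostat, 9522, 5369 and 5492 CPM in Dox_DMSO, and 7015, 4310 and 4709 CPM in NoDox_DMSO. In each of the last 3 groups the first library was the highest. Log2 fold changes were above 0 in all 11 tested mt members for doxycycline in entinostat (median 0.54), 10 of 11 for doxycycline in DMSO (0.19), 8 of 11 for entinostat without doxycycline (0.04) and 9 of 11 for entinostat with doxycycline (0.39), against 4 of 12 in experiment 1 (-0.08). Those of mt-Co1 were 0.65 ± 0.36 for doxycycline in entinostat and 0.39 ± 0.35 for entinostat with doxycycline (edgeR, adjusted p = 0.176 and 0.346). Without the 2 first libraries 8 and 6 mt members rose in these comparisons, where 26.1% and 43.1% of all genes rose. With the trend removed 0 and 7 fell, where 15.5% and 26.8% of all genes fell, so no direction is given. Overlapping mt-Nd5 and mt-Nd6 lie on opposite strands and their reads cannot be separated.

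**Figure D5:**
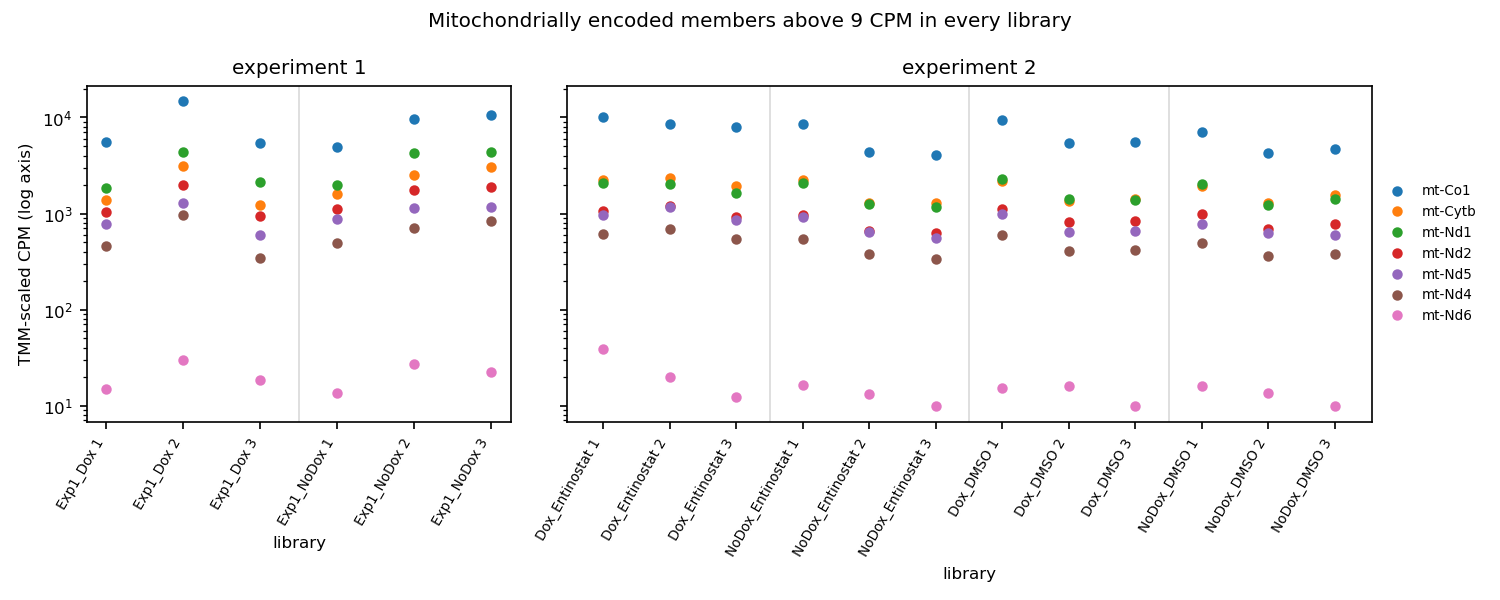
TMM-scaled CPM (log axis) of the 7 mitochondrially encoded members above 9 CPM in every library, by library and group, experiment 1 at the left and experiment 2 at the right. In experiment 1 the high libraries are Exp1_Dox 2, Exp1_NoDox 2 and Exp1_NoDox 3, and in experiment 2 the 3 Dox_Entinostat libraries and the first library of each other group stand highest for most of these genes.

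Genes that build and regulate the chain were described from lists of other genes of the pathway, and counts on these short lists are read against the share of all genes called in the same direction. Doxycycline in experiment 1 called 0 of 17 complex I, 0 of 4 complex II, 1 of 6 complex III (Lyrm7, up), 1 of 21 complex IV (Cox20, up) and 1 of 3 ATP synthase (Atpaf1, down) assembly factors. Atpaf1, which binds the beta subunit during assembly, fell by 0.73 ± 0.12 on the log2 scale (edgeR, adjusted p = 0.0116). None of 13 tricarboxylic acid cycle enzymes or 13 ubiquinone synthesis genes was called, and Pnpt1, a mitochondrial RNA exonuclease, was 1 rise among 21 genes of mitochondrial DNA expression. Gabpa, an ETS factor known to drive respiratory genes, was 1 fall among 10 tested regulators of mitochondrial biogenesis, at 164, 170.3 and 160.0 CPM in Exp1_Dox, against 226, 213 and 207 CPM in Exp1_NoDox (log2 fold change -0.39 ± 0.07, edgeR adjusted p = 0.016). Slc25a4, a heart and muscle adenine nucleotide carrier, fell by 0.35 ± 0.08 (edgeR, adjusted p = 0.0323). Over all genes 5.26% rose and 8.36% fell in this comparison, and 1 call on a list of this length is near those shares. In DMSO, where 3.77% of all genes rose and 5.53% fell, doxycycline called none of the genes on any of these lists.

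Of 11 regulators of mitochondrial biogenesis tested, 9 fell and 1 rose with entinostat without doxycycline, where 16.9% of all genes fell and 30.3% rose. With doxycycline present 10 fell and 1 rose, where 29.9% of all genes fell and 33.9% rose. The medians were -0.84 and -1.40 log2, against 0.07 and 0.14 over all genes. Myc stood at 39.5, 40.4 and 40.3 CPM in Dox_Entinostat, against 146, 260.1 and 230 CPM in Dox_DMSO (log2 fold change -2.40 ± 0.27, edgeR adjusted p = 1.45e-05). It stood at 46.9, 84.9 and 81.6 CPM in NoDox_Entinostat, against 176, 255 and 208 CPM in NoDox_DMSO (-1.58 ± 0.26, edgeR adjusted p = 0.000321). Ppargc1b and Pprc1, coactivators of the PGC-1 family, fell by 1.73 and 1.72 on the log2 scale with doxycycline and also fell without it, and Gabpb1, Yy1, Nrf1 and Esrra fell in both. The rise was Ppargc1a (PGC-1 alpha), with 13, 66 and 33 counts in Dox_Entinostat, against 0 in all Dox_DMSO libraries, and 20, 59 and 47 counts in NoDox_Entinostat, against 0 in all NoDox_DMSO libraries. These are at least 40.8-fold and 43.6-fold higher relative to library totals, taking a floor of 3 counts over each DMSO group.

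The other lists are set against the same shares of all genes: 16.9% fell and 30.3% rose without doxycycline, and 29.9% fell and 33.9% rose with it. Of 21 genes of mitochondrial DNA expression and maintenance, 9 fell and none rose without doxycycline, and 12 fell and 4 rose with it; Supv3l1, a helicase of mitochondrial RNA decay, fell by 1.23 ± 0.16 and 1.30 ± 0.16 on the log2 scale (edgeR, adjusted p = 4.96e-05 and 2.7e-05), and Twnk, the mitochondrial DNA helicase, fell by 1.62 ± 0.21 with doxycycline. Of 13 tricarboxylic acid cycle enzymes, 3 fell without doxycycline (Idh3a, Mdh2 and Dld) and 10 with it; Mdh2, the mitochondrial malate dehydrogenase, fell by 0.85 ± 0.19 on the log2 scale with doxycycline present (edgeR, adjusted p = 0.00171). Complex IV assembly factors gave 6 falls and no rise of 21 without doxycycline, led by the copper chaperone Sco1 (-1.05 ± 0.15, edgeR adjusted p = 0.000129), Coa5 and Cox10, and 7 falls and 4 rises with it. Complex I assembly factors gave 5 falls and 1 rise of 17 without doxycycline and 5 falls and 4 rises with it, and Nubpl, which delivers iron-sulfur clusters to complex I, rose in both. Counts for complex III were 3 falls and 1 rise of 6, and 2 and 2 with doxycycline; for complex II 0 of 4, and 1 rise (Sdhaf4); and for ATP synthase 1 fall of 3 (Atpaf2) in each. The 5 falls of 17 complex I and 7 of 21 complex IV assembly factors with doxycycline present are near the share of all genes that fell.

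Among 13 ubiquinone synthesis genes, 3 fell and 1 rose with entinostat alone, and 5 fell and 1 rose with doxycycline present; Coq7 fell and Coq10a rose in both. These falls too are near the shares of all genes that fell, 16.9% and 29.9%. Of 9 mitophagy genes, 3 fell without doxycycline (Phb2, Bcl2l13 and Fkbp8), and with it 4 fell and Bnip3l, a receptor for clearing mitochondria from red cell precursors, rose (0.64 log2, edgeR adjusted p = 0.0435). Slc25a4 rose by 0.76 ± 0.22 on the log2 scale without doxycycline (edgeR, adjusted p = 0.0126) and rose with it as well (adjusted p = 0.00127), and Slc25a31, the testis form of the same carrier, rose at no more than 1.93 CPM. Cyc1, the cytochrome of complex III, fell with doxycycline present, as the 1 call among Cycs, Cyc1 and Ndufab1.

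Doxycycline in entinostat, where 8.96% of all genes rose and 15.1% fell, gave 3 rises and 1 fall of 17 complex I, 1 rise of 4 complex II, 2 rises of 6 complex III, 4 rises and 2 falls of 21 complex IV and none of 3 ATP synthase assembly factors. Lyrm7, a chaperone of the Rieske protein of complex III, rose by 1.04 ± 0.16 on the log2 scale (edgeR, adjusted p = 0.00155; at most 0.0117 with a library left out). It also rose in experiment 1 (0.36 ± 0.08, edgeR adjusted p = 0.0296), where leaving out single libraries gave 0.0531 to 0.149. Among 13 tricarboxylic acid cycle enzymes 5 fell, including citrate synthase Cs (-0.96 ± 0.27, edgeR adjusted p = 0.0271), and among 13 ubiquinone genes Coq8a and Coq8b fell, which is near the share of all genes. Genes of mitochondrial DNA expression gave 3 rises and 3 falls of 21, biogenesis regulators 2 falls of 11 (Myc and Gabpa), mitophagy genes 1 fall of 9 (Pink1), and Cycs, which encodes cytochrome c, rose. No carrier was called, and the interaction called none of the genes on these lists. The length of transcripts moves with these entinostat comparisons as it does for the subunits, and its part in the list counts was not tested.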

How the data were processed

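Counts per gene were analysed from the authors' deposited tables, 1 for each experiment, which hold raw counts with 1 column per library. The submitters' processing notes name STAR, mm10, DESeq2 and bcl2fastq 2.17.1.14 without their roles; the counter, annotation and strand setting are not given in the sources used here. No value in the experiment 1 table is under 1, and 3543 genes are at 1 in every library. How reads shared by pseudogene copies were counted is not stated, and 30 members have exons that overlap another gene on the opposite strand in GENCODE M21 (mm10), which also gave transcript lengths; promoters came from RefSeq (GRCm38.p6).

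The experiments were fitted separately (edgeR 4.0.16, R 4.3.3; quasi-likelihood, TMM factors, filterByExpr, group means), with two-sided tests adjusted by Benjamini-Hochberg over all 13811 or 15051 genes tested; a call is an adjusted p under 0.05. The filter kept 82 of 86 nuclear members in each experiment, and 12 of 12 and 11 of 13 mt members. The trend removed was a spline over transcript length and GC content (4 degrees of freedom). The fits were tested on simulated counts. DESeq2 was version 1.42.0. Counting intervals and floors cover counting error only, as reads carry no molecular identifiers.

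Same-numbered libraries of experiment 1 deviated together in every pair, above the limit of 0.1 set for pairing, though other numbers correlated at up to 0.672; the labels do not say what a number shares. The alternatives tried were DESeq2, scaling by RLE factors or by library size only, keeping genes of low counts, the replicate block, the trend removal with and without the block, each library left out, and, added after seeing the data, 2 first libraries left out together. Members, lists and tests were chosen with earlier results of these data known. Named genes are core subunits, tissue isoforms with their common forms, c ring copies, mt members, up to 10 called members with the largest rise and fall per comparison, and up to 4 called genes per list; Ndufb10, Ndufv3, Sdhd, Ndufs3 and Ndufa5 outside the comparison that called them, and some list genes, were named after their values were seen. Some genes that the rule names are not reported here.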

Additional observations from a re-analysis of the deposited data

Results flagged for a closer look

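Ndufb1-ps, left out of the members because its name ends in -ps, carried a signal in experiment 2 outside the main measurement. Its mean was 531 CPM in Dox_Entinostat, above every DMSO library. It stood at 361, 729 and 504 CPM in Dox_Entinostat, 333, 96.0 and 141 CPM in NoDox_Entinostat, 401, 129 and 136 CPM in Dox_DMSO, and 220, 112 and 205 CPM in NoDox_DMSO. Against the highest NoDox_DMSO value all 3 Dox_Entinostat libraries were higher, but the first Dox_DMSO library, 401 CPM, lay above the lowest of them. The gene was high in the same libraries as short nuclear members.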

How the results depend on the processing

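Of 659 alternative values of the 34 named member results, 544 kept their direction and side of the threshold, 115 were no longer past it and 0 reversed. In experiment 2 these include fits without a library from outside the comparison. Such fits act only through the shared spread, filter and scaling, so many of the 544 had little room to move. Counts of called nuclear members moved more, and the cause was not tested. Calls over all genes moved too, so these counts are not read as results about the members. In experiment 1, of 13811 genes tested, 727 rose and 1154 fell. The block gave 3611 and 3416, trend removal 1122 and 1396, and both 4197 and 3486. For doxycycline in DMSO, of 15051 genes, 568 rose and 833 fell. The block gave 887 and 1146, trend removal 1084 and 1236, and both 1495 and 1576. For doxycycline in experiment 1 (2 up, 1 down), there were 0 up and 0 down without the filter on low counts and with DESeq2, 64 and 3 with the replicate block, 4 and 2 with the length and GC trend removed, 62 and 4 with both, and 0 to 2 up and 0 down with single libraries left out. For doxycycline in DMSO (1 up, 0 down), the counts were 2 and 1 without the filter and with the replicate block, 1 down in DESeq2, 3 up with the trend removed, 4 and 1 with trend and block, 2 and 8 without the 2 first libraries, and 0 to 1 down with single libraries left out; 1 mt member was up without the filter, in DESeq2 and without the 2 first libraries.

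For doxycycline in entinostat (26 up, 0 down), the counts were 25 and 2 with library size alone and 42 and 2 without the filter. They were 41 and 2 in DESeq2, 59 and 3 with the replicate block (5 mt up), and 27 and 3 with the trend removed. They were 39 and 5 with trend and block, and 68 and 6 without the 2 first libraries (8 mt up). With single libraries left out they were 1 to 60 up, 0 to 4 down and 0 to 7 mt up. For entinostat without doxycycline (0 up, 2 down), they were 0 down with library size alone, 1 down without the filter, 5 down in DESeq2, 1 and 11 with the block, 1 and 8 with the trend removed, 2 and 11 with both, 60 down without the 2 first libraries, and 0 to 1 up and 0 to 8 down with single libraries left out. For entinostat with doxycycline (21 up, 8 down), they were 37 up (1 mt up) with library size alone, 1 mt up without the filter, 44 up (1 mt up) with the block, 19 down (7 mt down) with the trend removed, 25 down (5 mt down) with trend and block, 58 up (6 mt up) without the 2 first libraries, and 3 to 53 up and 0 to 1 mt up with single libraries left out. The interaction (0 up, 0 down) gave 64 and 6 (7 mt up) without the 2 first libraries. With single libraries left out it gave 0 to 28 up and 0 to 1 down. Over all 15051 genes tested, doxycycline in entinostat called 1348 up and 2266 down. The block gave 2691 and 3424, and trend and block 3124 and 3060. Entinostat without doxycycline called 4554 and 2545 of all genes, then 4923 and 3392, then 5770 and 3518 under these fits. Entinostat with doxycycline called 5097 and 4498, then 5843 and 4953, then 6304 and 4407.

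Library size alone moved the median of all genes to -0.22 in doxycycline in entinostat and 0.28 in entinostat with doxycycline, against -0.08 and 0.14 with TMM. In experiment 2 the same-numbered libraries did not all deviate together, with correlations under 0.1 among libraries numbered 3, so the replicate block there rests on numbers alone. Cox6a2, Cox6b2, Cox7a1 and Ndufa4l2 have few counts, which limits their precision.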
